A study of Mus musculus with 12 samples.

Results

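The 10 genes described here carry out iron export and storage, heme breakdown and the antioxidant response: Nfe2l2, Keap1, Hmox1, Slc40a1, Fth1, Slc7a11, Gclc, Gclm, Nqo1 and Txnrd1. Their chromatin accessibility was followed in macrophages from mouse brain tumours. A region of the count table belonged to a gene when it overlapped the gene's span or the 5 kb flanking it, which gave 58 of 117835 regions, and the sum over those regions is called the locus below. All 10 genes were among the 16304 protein-coding genes with a region. The assay was ATAC-seq: Tn5 transposase cuts open DNA and adds sequencing adapters there, so read counts follow accessibility. All animals carried the Ink4a/Arf knockout and tumours driven by PDGFB, whose expression was enforced in Nestin-positive progenitors. The sources used here give neither age nor sex of the animals. The 4 groups, with 3 libraries each, were monocyte-derived macrophages, which come from the blood, without lipid load (MDM) and lipid-laden (LL-MDM), and microglia, the resident macrophages of the brain, without lipid load (MG) and lipid-laden (LL-MG).

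The transcription factor NRF2, encoded by Nfe2l2, is held in the cytoplasm and marked for degradation by KEAP1, and oxidants or electrophiles release it. It then binds antioxidant response elements with small MAF proteins, while the heme-binding repressor BACH1 competes for the same sites. Macrophages that take up red cells or cell debris break heme down with heme oxygenase 1 (Hmox1), export the iron through ferroportin (Slc40a1) or store it in ferritin (Fth1). Cystine brought in by Slc7a11 feeds glutathione synthesis, which starts with the enzyme formed by Gclc and Gclm, and the reductases Nqo1 and Txnrd1 handle quinones and thioredoxin.

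Libraries were grouped by sample description, the name each has in the count table. Sample titles, and the cell type labels with them, name another group for 8 of the 12 libraries. With groups by title, 0 of the 10 members were called between MG and MDM, as were 0 of all loci (61 at an unadjusted p under 0.05, edgeR), so every lineage result below rests on the grouping by column name. The alternatives counted below (23 for a locus, up to 20 for a region) include neither the grouping by title nor the fit with sets of libraries as a block described in the closing section. The microglia regulator Sall1 stood at 37.7 to 71.4 CPM (counts scaled to a common library total) in MG and 63.4 to 85.0 in LL-MG, against 0.471 to 1.02 in MDM and 5.94 to 11.5 in LL-MDM. The summed level of 7 microglia markers was 174 to 187 CPM in MDM, 230 to 246 in LL-MDM, 226 to 429 in MG and 403 to 463 in LL-MG. That of 5 monocyte-derived markers was 293 to 336, 207 to 224, 106 to 157 and 103 to 115, and no marker on these lists was at 0 in all libraries. Among the microglia markers, Tmem119 averaged 30.5 CPM in MDM and 70.7 in LL-MDM, above MG (43.7) and LL-MG (54.7). From MDM to LL-MDM, P2ry12 (45.7 and 44.1) and Siglech (44.3 and 39.2) did not rise. The other microglia markers rose by fewer CPM than Tmem119. Libraries MG 2 and MG 3 stood apart from MG 1 in the monocyte receptor gene Ccr2, at 40.6 and 27.1 CPM against 9.86. Both lay above the MDM libraries, where Ccr2 was at 21.8 to 26.3 CPM. The other monocyte-derived markers were below every MDM library in all MG libraries. Their highest MG values were 48.6 CPM (Itga4), 20.4 (Ms4a7), 28.8 (S100a6) and 25.02 (Clec12a). Their lowest MDM values were 107, 42.9, 51.4 and 64.5 CPM in that order. Of 7 erythroid genes, 4 had a region, with summed levels of 191 to 224 CPM in MDM and 196 to 212 in the other groups, and the alpha-globin gene Hba-a1 was between 1.56 and 4.11 CPM in every library. Totals ran from 1162969 counts (LL-MDM 1) to 18938222 (MDM 2). Titles carry numbers that may mark animals, but they follow the grouping that the column names contradict, so libraries could not be tied to separate animals and p-values reflect only how far these libraries spread. Markers of other cell types also differed between MG and MDM (41% of all loci were called). In MG, 2 of 4 dendritic, 2 of 3 border-associated macrophage and 1 of 3 neutrophil markers were lower. So were 1 of 2 endothelial and 1 of 2 T and NK markers. Of 3 astrocyte markers 2 were higher and 1 lower. Of 4 oligodendrocyte and tumour progenitor markers 1 was higher and 2 lower. A part of such cells in the differences below was not tested. In bulk libraries, fewer cells of a type and less signal per cell cannot be told apart.

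The promoters of 5 members are shown because each lay wholly within an accessible region whose values are given below. They are the 250 bases before the annotated start (RefSeq, GRCm38.p6, the assembly of mm10), read 5′ to 3′ on the gene's strand. Capitals mark matches on either strand to the antioxidant response element TGACNNNGC or, in Slc7a11, to the amino acid response element TGATGCAA, a site of the stress factor ATF4 that was added to the search after the sequences had been read.
Nfe2l2 chr2:75704664-75704913, minus strand: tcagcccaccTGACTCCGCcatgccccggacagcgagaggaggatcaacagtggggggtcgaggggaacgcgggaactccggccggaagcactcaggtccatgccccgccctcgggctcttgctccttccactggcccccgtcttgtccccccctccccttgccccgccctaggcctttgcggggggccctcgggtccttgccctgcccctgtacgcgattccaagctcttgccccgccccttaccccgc
Slc7a11 chr3:50443614-50443863, minus strand: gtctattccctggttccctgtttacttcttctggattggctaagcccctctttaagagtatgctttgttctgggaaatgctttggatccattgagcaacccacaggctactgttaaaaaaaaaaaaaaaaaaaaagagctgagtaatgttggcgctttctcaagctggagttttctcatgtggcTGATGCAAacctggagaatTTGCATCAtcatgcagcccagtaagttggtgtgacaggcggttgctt
Gclm chr3:122245307-122245556, plus strand: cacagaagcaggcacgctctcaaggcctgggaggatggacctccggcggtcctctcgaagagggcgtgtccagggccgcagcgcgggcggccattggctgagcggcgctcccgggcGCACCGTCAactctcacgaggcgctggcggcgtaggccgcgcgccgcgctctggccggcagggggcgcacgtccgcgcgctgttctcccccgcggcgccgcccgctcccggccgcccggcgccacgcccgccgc
Nqo1 chr8:107403206-107403455, minus strand: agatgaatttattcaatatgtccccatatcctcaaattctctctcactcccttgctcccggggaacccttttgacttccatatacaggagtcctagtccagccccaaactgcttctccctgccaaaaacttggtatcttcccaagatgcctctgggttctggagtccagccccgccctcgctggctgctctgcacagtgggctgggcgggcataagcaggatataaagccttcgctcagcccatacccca
Txnrd1 chr10:82858956-82859205, plus strand: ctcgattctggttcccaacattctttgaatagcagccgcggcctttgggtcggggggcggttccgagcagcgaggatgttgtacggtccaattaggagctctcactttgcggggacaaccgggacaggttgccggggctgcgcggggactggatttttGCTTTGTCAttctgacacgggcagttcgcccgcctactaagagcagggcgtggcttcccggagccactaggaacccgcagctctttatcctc
Counted from the base before the start, the antioxidant element lay at -240 to -232 in Nfe2l2, at -134 to -126 in Gclm on the opposite strand, and at -92 to -84 in Txnrd1 on the opposite strand. It occurred in 10.2% of 32851 promoter windows of the same length. The amino acid element lay at -66 to -59 in Slc7a11 and, on the opposite strand, at -47 to -40, and 0.791% of all windows held it. Neither the AP-1 core TGANTCA (6.75% of windows; the letters can overlap an antioxidant element) nor the MAF recognition element (searched in its long palindromic form, 0.00609%) was found in the windows of the members, and the Nqo1 window held none of the 4 motifs. Of the 10 members, 7 had an entry in the promoter table, with 10 windows in all, and the genes without one were Hmox1, Slc40a1 and Gclc.

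Between the lineages without lipid load, microglia had a more open ferroportin locus and a less open cystine transporter locus than MDM. Of the 10 members, 7 differed between MG and MDM at locus level, against 41% of all loci tested (edgeR quasi-likelihood test, Benjamini-Hochberg adjusted p under 0.05). The 4 higher in MG were Slc40a1, Gclc, Gclm and Hmox1, where 19.8% of all loci were higher, and the 3 lower were Slc7a11, Txnrd1 and Nqo1, where 21.2% were lower. The median log2 difference of the members was 0.066 and that of all loci was -0.0040. Among lipid-laden cells, 4 members differed between LL-MG and LL-MDM, against 20.3% of all loci. Slc40a1 and Hmox1 were higher in LL-MG (12% of all loci were) and Slc7a11 and Nqo1 lower (8.31%). With lipid load, 3 members differed between LL-MDM and MDM (23.8% of all loci): Slc40a1 and Gclc were higher (11.7% of all loci) and Txnrd1 was lower (12.2%). Of the 10 members, Slc7a11 alone was called between LL-MG and MG and was higher (18.3% of all loci were called, 10.3% higher and 7.98% lower). Without MG 2 and MG 3 these counts were 5, 4, 6 and 0 of 10; Gclm and Nqo1 were the members no longer called between MG and MDM. MG against MDM and LL-MDM against MDM share the MDM libraries, and MG against MDM and LL-MG against MG share the MG libraries.

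**Figure D1:**
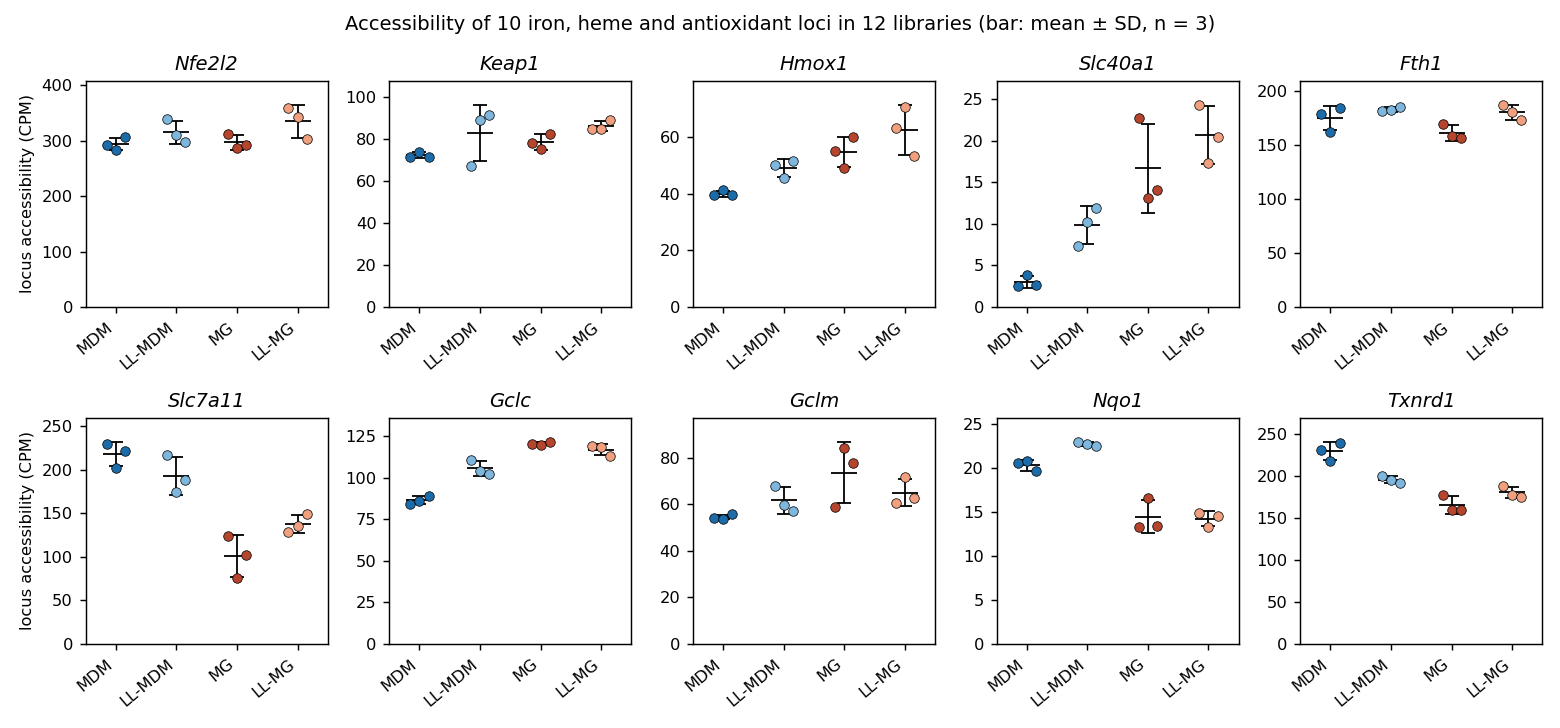
Locus accessibility in CPM for each of the 10 genes, with 1 point per library and the mean ± SD of the 3 libraries of each group; the vertical axes start at 0 and differ between genes. Slc40a1 lay between 2.56 and 3.79 CPM in the 3 MDM libraries and between 13.1 and 22.8 in the 3 MG libraries, and Slc7a11 lay between 202 and 229 in MDM and between 75.5 and 124 in MG.

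**Figure D2:**
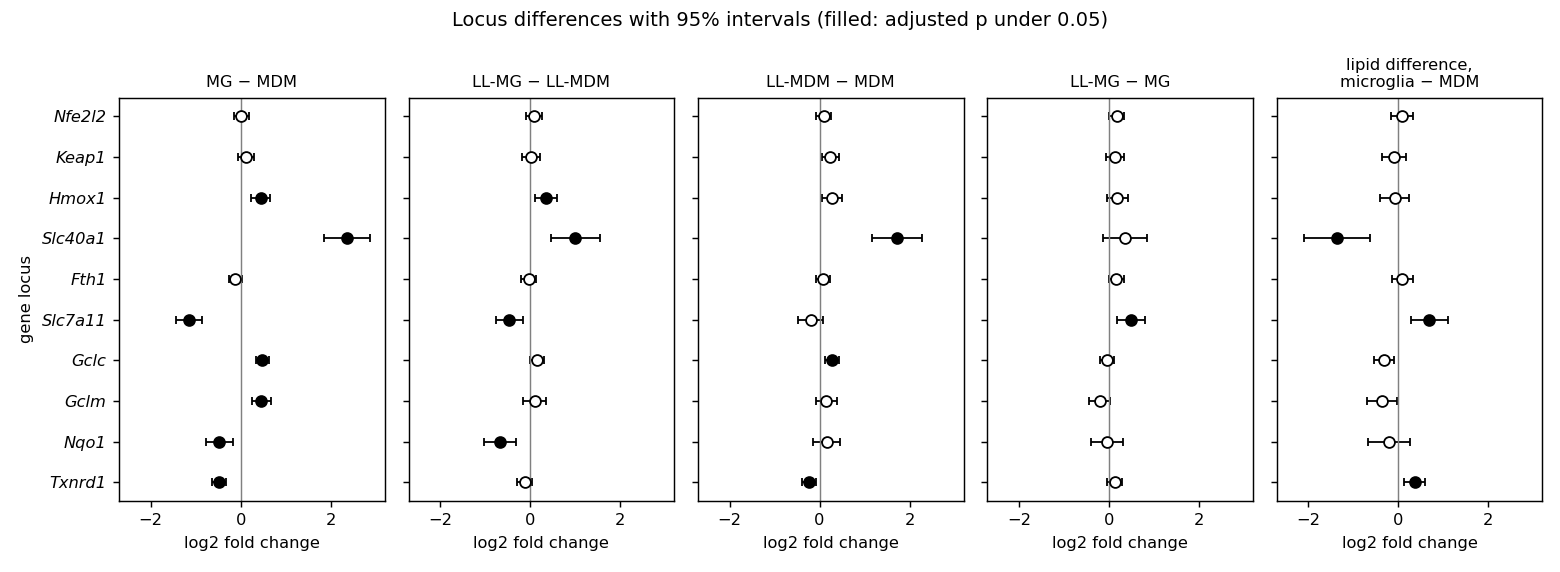
Log2 fold changes of the 10 loci with their 95% intervals in the 4 comparisons and for the lipid-load interaction (the log2 fold change of LL-MG over MG minus that of LL-MDM over MDM); filled points passed an adjusted p of 0.05. Slc40a1 is the point farthest to the right for MG against MDM (2.37) and Slc7a11 the one farthest to the left (-1.15).

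Nfe2l2, the gene of NRF2 itself, spans chr2:75675513-75704663 and was among the most accessible members. Its locus stood at 293, 284 and 306 CPM in MDM libraries 1 to 3, at 339, 310 and 297 in LL-MDM, at 313, 287 and 293 in MG and at 360, 343 and 303 in LL-MG. All 4 groups overlapped, and no comparison was called. The log2 difference was 0.014 (95% interval -0.15 to 0.18) between MG and MDM and 0.17 (-0.00037 to 0.34) between LL-MG and MG. The widest region, chr2:75703437-75705051, which holds the promoter shown above, averaged 180.2 CPM in MDM, 195.8 in LL-MDM, 199.3 in MG and 205.4 in LL-MG and was not called in any comparison.
A short region just upstream of the gene, chr2:75705230-75705423, did differ. It stood at 11.0, 10.6 and 13.2 CPM in MDM, at 23.9, 16.0 and 19.2 in LL-MDM, at 25.2, 18.4 and 25.6 in MG and at 24.9, 20.7 and 25.8 in LL-MG. The 3 MDM libraries were below all others. The log2 fold change was 0.995 ± 0.18 (standard error, SE) between MG and MDM (edgeR adjusted p = 1.58e-05) and 0.70 ± 0.19 between LL-MDM and MDM (edgeR adjusted p = 0.00491). Region values are scaled to the tested regions of a library and locus values to all tested loci, so that CPM of a region and of a locus are not on the same scale.
A second Nfe2l2 region inside the gene, chr2:75682922-75683290, was higher in MG than in MDM (37.0 against 26.01 CPM, log2 fold change 0.50 ± 0.16, edgeR adjusted p = 0.00848), a call lost without MDM 1 (0.056) or MDM 2 (0.0743).

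Keap1, the gene of the NRF2 inhibitor, spans chr9:21229730-21239332 and shares 56.6% of its counts with the neighbouring receptor gene S1pr5. The locus stood at 71.6, 73.8 and 71.3 CPM in MDM, at 67.3, 89.2 and 91.6 in LL-MDM, at 78.2, 75.2 and 82.4 in MG and at 84.7, 85.0 and 89.1 in LL-MG. LL-MDM 1, the shallowest library, lay below MDM and the other LL-MDM libraries above it. The log2 difference between LL-MDM and MDM was 0.24 ± 0.09 and was not called (edgeR adjusted p = 0.0523), although 12 of 23 alternatives called it.
Inside the gene, adjoining regions at chr9:21237459-21237548 and chr9:21237598-21237795 were more open in every other group than in MDM. The wider of them stood at 6.94, 6.19 and 7.01 CPM in MDM, at 15.9, 12.7 and 14.4 in LL-MDM, at 13.0, 12.7 and 11.5 in MG and at 16.7, 14.1 and 15.6 in LL-MG. MDM overlapped no other group. Its log2 fold change was 1.05 ± 0.20 between LL-MDM and MDM (edgeR adjusted p = 0.000142) and 0.89 ± 0.19 between MG and MDM (0.000256). The narrower region, named as a peak in LL-MDM and MG only, rose from a mean of 2.83 CPM in MDM to 7.58 in LL-MDM (1.45 ± 0.27, edgeR adjusted p = 1e-04) and was 7.04 in MG (1.26 ± 0.26, edgeR adjusted p = 0.000143). In both regions these calls were lost when all libraries were thinned to the smallest total (edgeR adjusted p between 0.116 and 0.24).
The region at the Keap1 start, chr9:21238548-21239331, averaged 33.3 CPM in MDM, 32.8 in LL-MDM, 42.9 in MG and 31.3 in LL-MG. MG 1 stood at 34.8 CPM, close to the other groups, and MG 2 and MG 3 at 48.0 and 45.9. LL-MG was lower than MG (-0.47 ± 0.15, edgeR adjusted p = 0.0394), but 18 of 20 alternatives did not call this. Leaving out any library but MG 1 ended the call (0.05 to 0.209), and without both MG 2 and MG 3 the log2 fold change was -0.16 (0.897).

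Hmox1, which encodes the inducible enzyme that opens the heme ring and frees its iron, spans chr8:75093618-75100593. Its locus stood at 39.4, 41.3 and 39.4 CPM in MDM, at 50.04, 45.5 and 51.6 in LL-MDM, at 55.1, 49.2 and 60.1 in MG and at 63.4, 70.8 and 53.2 in LL-MG. All MDM libraries were below all others, LL-MDM and MG overlapped, and so did MG and LL-MG. MG exceeded MDM by 0.44 ± 0.10 (log2, edgeR adjusted p = 0.00131), and LL-MG exceeded LL-MDM by 0.36 ± 0.12 (0.0359). The second call was lost in 9 of 23 alternatives, among them those without LL-MDM 1 (0.0582), LL-MDM 2 (0.195), LL-MDM 3 (0.0529), LL-MG 1 (0.107) or LL-MG 2 (0.211). LL-MDM against MDM gave 0.27 ± 0.11 and was not called (edgeR adjusted p = 0.0738). The lipid-load interaction was -0.08 (95% interval -0.41 to 0.24).
The signal lay mainly in the region over the low end of the Hmox1 span, chr8:75093478-75093958. It stood at 24.6, 25.9 and 26.7 CPM in MDM, at 36.3, 30.7 and 35.3 in LL-MDM, at 41.1, 45.3 and 46.6 in MG and at 46.6, 47.0 and 41.4 in LL-MG. MDM, LL-MDM and the microglia groups formed 3 levels with no overlap between them. MG exceeded MDM by 0.80 ± 0.12 (edgeR adjusted p = 2.26e-06), a call kept in all 20 alternatives. The steps from MDM to LL-MDM (0.38 ± 0.13, edgeR adjusted p = 0.0301) and from LL-MDM to LL-MG (0.43 ± 0.14, 0.0297) were called in 14 and 15 of the 20 alternatives. The first was lost without MDM 1, MDM 2, LL-MDM 1 or LL-MDM 3 (0.092 to 0.147) and the second without LL-MDM 2, LL-MDM 3, LL-MG 1 or LL-MG 2 (0.0561 to 0.189). A region of 82 bases beyond the other end of the gene, chr8:75104589-75104670, was lower in MG than in MDM (1.52 against 2.88 CPM, -1.11 ± 0.38, edgeR adjusted p = 0.0142), which was lost without MDM 2 (0.0745) or MG 2 (0.16) and was -0.43 (0.633) without MG 2 and MG 3.

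Slc40a1, which encodes ferroportin, the only known exporter of iron from mammalian cells, differed most between the lineages. The gene spans chr1:45908070-45926532, and its locus stood at 2.56, 3.79 and 2.67 CPM in MDM, at 7.38, 10.2 and 11.9 in LL-MDM, at 22.8, 13.1 and 14.1 in MG and at 24.3, 17.4 and 20.4 in LL-MG. MDM was below LL-MDM and LL-MDM below both microglia groups in every library, while MG and LL-MG overlapped. MG was 5.16-fold above MDM (log2 fold change 2.37 ± 0.24, edgeR adjusted p = 9.66e-08) and LL-MDM was 3.30-fold above MDM (1.72 ± 0.27, edgeR adjusted p = 0.000105). Both calls held in all 23 alternatives. LL-MG exceeded LL-MDM by 1.01 ± 0.26 (edgeR adjusted p = 0.00755; 0.0506 without LL-MG 1), and LL-MG exceeded MG by 0.36 (95% interval -0.13 to 0.86), which was not called (edgeR adjusted p = 0.279).
The step with lipid load was smaller in microglia than in MDM: the lipid-load interaction was -1.36 ± 0.36 on the log2 scale (edgeR adjusted p = 0.0203). This test of the difference was lost in 6 of 23 alternatives, without MDM 1 (0.0638), LL-MDM 2 (0.0653), LL-MDM 3 (0.0709), LL-MG 2 (0.0567) or LL-MG 3 (0.0506) and with all libraries thinned to the smallest total (0.231). The values rest on few counts: 37, 74 and 17 in the MDM libraries and 9, 78 and 38 in LL-MDM. Along the same comparison of LL-MDM with MDM, 4 of 7 microglia markers were higher and 4 of 5 monocyte-derived markers lower, and Sall1 went from a mean of 0.775 to 8.95 CPM. Their part in the Slc40a1 difference was not tested.
Both Slc40a1 regions lie inside the gene near its high end. The wider, chr1:45925519-45925902, stood at 2.48, 3.37 and 2.56 CPM in MDM, at 7.09, 9.18 and 10.6 in LL-MDM, at 19.3, 13.0 and 13.7 in MG and at 19.5, 12.7 and 17.4 in LL-MG. Here too only MG and LL-MG overlapped. Its log2 fold change was 2.37 ± 0.23 between MG and MDM (edgeR adjusted p = 3.24e-10) and 1.69 ± 0.25 between LL-MDM and MDM (5.82e-06), and the lipid-load interaction was -1.54 ± 0.34 (edgeR adjusted p = 0.00346). All 3 calls held in all 20 alternatives. LL-MG exceeded LL-MDM by 0.83 ± 0.25 (edgeR adjusted p = 0.0144), which was lost without LL-MDM 2 (0.0833), LL-MG 1 (0.0841) or LL-MG 3 (0.0513). The narrower, chr1:45925320-45925439, was named as a peak in MG and LL-MG only, and averaged 0.404 CPM in MDM, 1.65 in LL-MDM, 3.95 in MG and 5.17 in LL-MG. MG exceeded MDM there by 3.03 ± 0.43 (edgeR adjusted p = 4.79e-07), and LL-MDM exceeded MDM by 1.96 ± 0.53 (0.00494; 0.059 without LL-MDM 2). LL-MG exceeded LL-MDM by 1.504 ± 0.46 (edgeR adjusted p = 0.0156; 0.144 without LL-MDM 2, 0.0936 without LL-MG 1 and 0.0519 without LL-MG 2). A region named as a peak in the microglia groups only can also pass the low-count filter through them alone. Both favour higher values in microglia.

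Fth1, the heavy chain of ferritin, spans chr19:9980600-9985111 and shares 80.6% of its counts with the neighbour Best1. Fth1 has processed copies elsewhere in the genome, and the sources used here do not say how reads with several matches were counted. The locus stood at 179, 162 and 184 CPM in MDM, at 181, 183 and 186 in LL-MDM, at 170.0, 158 and 156 in MG and at 187, 180.5 and 173 in LL-MG. The groups overlapped, except that LL-MDM and LL-MG both lay above MG, and no comparison was called. MG against MDM gave -0.12 (95% interval -0.27 to 0.04). With the shared regions left out, the value was 0.31 (edgeR adjusted p = 0.0391), so that the direction depends on which regions are counted.
The region over the Fth1 start, chr19:9982443-9983393, averaged 136 CPM in MDM, 138 in LL-MDM, 131 in MG and 122 in LL-MG and was not called. A region upstream of it, chr19:9978444-9978665, was higher in MG (27.7 against 19.1 CPM, log2 fold change 0.56 ± 0.16, edgeR adjusted p = 0.0034; 0.0754 without MDM 2). Beyond the other end of the gene, chr19:9989646-9989715 was lower in MG (4.35 against 6.57 CPM, -0.59 ± 0.24, edgeR adjusted p = 0.041; lost without MDM 1, MDM 3, MG 2 or MG 3, 0.0525 to 0.109). Between these, chr19:9986007-9986170 was higher in LL-MG than in MG (16.8 against 10.6 CPM, 0.70 ± 0.23, edgeR adjusted p = 0.0438), although the groups overlapped and leaving out LL-MDM 2, MG 2, MG 3 or any LL-MG library ended the call (0.0532 to 0.171).

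Slc7a11, the cystine-importing subunit of the cystine-glutamate exchanger, went the other way. It spans chr3:50364936-50499087, and its locus stood at 229, 202 and 222 CPM in MDM, at 217, 174 and 187 in LL-MDM, at 124, 75.5 and 102 in MG and at 128, 135 and 149 in LL-MG. MDM and LL-MDM overlapped, and both lay above every microglia library. MG was 2.21-fold below MDM (log2 fold change -1.15 ± 0.13, edgeR adjusted p = 4.17e-06), a call kept in all 23 alternatives. Among lipid-laden cells the difference was -0.46 ± 0.14 (edgeR adjusted p = 0.0297), which was lost without LL-MDM 1 (0.0867), LL-MDM 3 (0.0714), LL-MG 1 (0.103) or LL-MG 2 (0.0714).
LL-MG stood above MG with no overlap (0.49 ± 0.14, edgeR adjusted p = 0.0311). Leaving out MG 2 (0.0778), MG 3 (0.0675) or any LL-MG library (0.0658 to 0.117) ended that call, and without both MG 2 and MG 3 the log2 fold change fell to 0.15 (0.821). LL-MDM against MDM gave -0.20 (95% interval -0.48 to 0.08). The lipid-load difference was larger in microglia by 0.68 ± 0.19 (edgeR adjusted p = 0.0392), and 12 of 23 alternatives did not call it, among them those without any MDM or LL-MG library, LL-MDM 2, LL-MDM 3 or MG 3 (0.0561 to 0.112). Ccr2 stood at 9.86 CPM in MG 1, where Slc7a11 was highest among the MG libraries, and at 40.6 CPM in MG 2, where Slc7a11 was lowest. In MDM, where Ccr2 stood at 21.8 to 26.3 CPM, Slc7a11 was above every MG library. A link between Ccr2 and the Slc7a11 difference between LL-MG and MG was not tested.
The lower level in MG was found in every tested region of Slc7a11. Of its 18 regions 11 passed the count filter, and all 11 were lower in MG than in MDM, with log2 fold changes from -2.04 to -0.42. Regions of 1 gene are not independent of each other. A region can pass the filter through the MDM libraries alone, which favours a lower value in MG. At chr3:50444278-50444391, named as a peak in MDM only, means were 3.37 CPM in MDM and 1.51 in MG. Among all regions, 51.7% were called in this comparison and 24.9% were lower. Over the regions of all members, 31 were named as peaks in all groups and 19 in MDM only, and the share among all regions is not given here. The MDM libraries held 6341183 to 18938222 counts and those of the other groups 1162969 to 7390521. A link between these totals and the peaks named in MDM only was not tested. Of the 18 Slc7a11 regions, 7 were named as peaks in all groups and 9 in MDM only. The most accessible one, chr3:50402387-50403012, inside the gene, stood at 51.1, 46.3 and 57.1 CPM in MDM, at 51.4, 40.1 and 47.9 in LL-MDM, at 21.9, 12.3 and 14.6 in MG and at 30.3, 27.3 and 33.4 in LL-MG. MG was below LL-MG, and LL-MG below both MDM groups, in every library. The log2 fold change was -1.72 ± 0.16 between MG and MDM (edgeR adjusted p = 1.29e-10) and 0.97 ± 0.19 between LL-MG and MG (0.00189). LL-MG was below LL-MDM (-0.57 ± 0.17, edgeR adjusted p = 0.0148; lost without LL-MDM 1, LL-MDM 3 or any LL-MG library, 0.0535 to 0.109). The lipid-load difference was larger in microglia than in MDM by 1.15 ± 0.24 (edgeR adjusted p = 0.00191). The call between LL-MG and MG and that of the lipid-load difference were lost in 1 of 20 alternatives each, without both MG 2 and MG 3, with log2 values of 0.48 (0.608) and 0.68 (0.0968).
The region at the Slc7a11 start, chr3:50443375-50443894, which holds the promoter with the 2 amino acid elements shown above, had the smallest difference between MG and MDM among the tested regions of the gene. It stood at 29.2, 24.7 and 27.3 CPM in MDM, at 32.8, 24.8 and 24.3 in LL-MDM, at 21.1, 21.4 and 18.0 in MG and at 21.7, 19.3 and 18.5 in LL-MG, with a log2 fold change of -0.42 ± 0.15 between MG and MDM (edgeR adjusted p = 0.0195). A region at chr3:50388250-50388642, named as a peak in the MDM groups only, averaged 7.01 CPM in MDM, 4.53 in LL-MDM, 1.55 in MG and 1.65 in LL-MG. It was the region with the log2 fold change of -2.04 ± 0.34 between MG and MDM (edgeR adjusted p = 6.78e-06), and LL-MDM was below MDM (-0.80 ± 0.31, 0.0475), with overlap and a call lost in 12 of 19 alternatives, among them those without any MDM or LL-MG library, LL-MDM 2 or LL-MDM 3 (0.0565 to 0.335). At chr3:50438908-50439181, near the start, MG averaged 10.0 CPM and MDM 22.0 (-1.14 ± 0.18, edgeR adjusted p = 2.24e-06; called in all 20 alternatives).

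**Figure D3:**
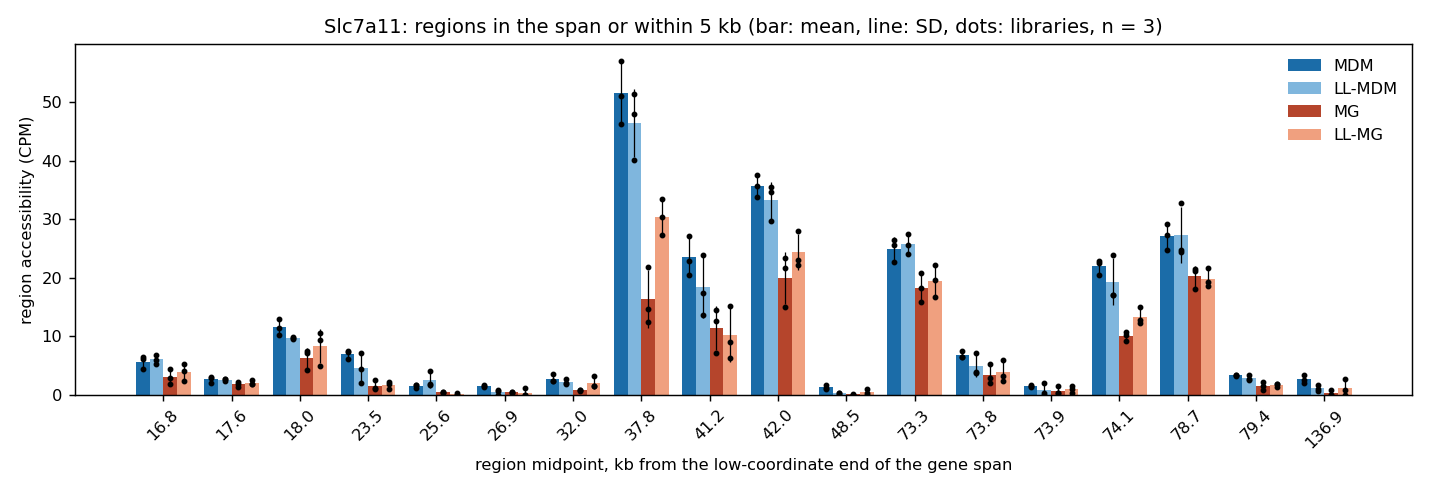
Accessibility in CPM of the 18 Slc7a11 regions, ordered by the distance of their midpoints in kb from the low-coordinate end of the gene span (bars are means of 3 libraries, lines SD, dots single libraries). The region at 37.8 kb averaged 51.5 CPM in MDM and 16.3 in MG, and the region at 78.7 kb, over the gene's start, 27.1 and 20.2.

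Gclc and Gclm encode the catalytic and the modifier subunit of glutamate-cysteine ligase, and both were more open in MG than in MDM. Gclc spans chr9:77754535-77794489, and its locus stood at 84.2, 86.2 and 88.8 CPM in MDM, at 111, 104 and 102 in LL-MDM, at 120.0, 119.6 and 121.5 in MG and at 119, 118 and 113 in LL-MG. MDM, LL-MDM, LL-MG and MG followed each other without overlap, although LL-MG against MG gave -0.043 (95% interval -0.20 to 0.11) and was not called. MG exceeded MDM by 0.48 ± 0.07 (edgeR adjusted p = 9.16e-06; called in all 23 alternatives) and LL-MDM exceeded MDM by 0.28 ± 0.07 (0.00747). The second call was lost when only regions in the span (0.22, adjusted p = 0.104) or within 2 kb (0.21, adjusted p = 0.131) were summed. The lipid-load interaction was -0.33 ± 0.10 (edgeR adjusted p = 0.056).
The Gclc region outside the span, chr9:77750456-77751156, stood at 44.5, 44.4 and 46.0 CPM in MDM, at 54.9, 56.9 and 59.6 in LL-MDM, at 57.1, 82.0 and 72.0 in MG and at 63.3, 57.8 and 56.6 in LL-MG. MG 2 and MG 3 were the highest libraries and MG 1 lay among the lipid-laden ones. MG exceeded MDM by 0.66 ± 0.12 (edgeR adjusted p = 2.26e-05; leaving out MG 2 and MG 3 gave 0.34, adjusted p 0.0916), and LL-MDM exceeded MDM by 0.35 ± 0.13 (0.0331; lost without MDM 1, MDM 2 or any LL-MDM library, 0.0581 to 0.137). The lipid-load interaction was -0.62 ± 0.18 (edgeR adjusted p = 0.0255). It was lost in 13 of 20 alternatives, among them those without MDM 1, MDM 2, MG 2 or any library of the lipid-laden groups (0.0576 to 0.121). The region over the low end of the span, chr9:77754389-77755082, averaged 42.0 CPM in MDM and 64.2 in MG (0.62 ± 0.12, edgeR adjusted p = 4.39e-05), a call kept in all 20 alternatives.
Gclm spans chr3:122245487-122267215 and has 1 region, chr3:122245269-122246325, over its start. The locus stood at 54.1, 53.8 and 55.6 CPM in MDM, at 68.1, 59.8 and 57.2 in LL-MDM, at 58.8, 84.1 and 78.0 in MG and at 60.4, 71.7 and 62.9 in LL-MG. MDM was below all other libraries, and the other 3 groups overlapped. MG exceeded MDM by 0.46 ± 0.10 (edgeR adjusted p = 0.000896). The size of the difference rested on MG 2 and MG 3: without them it was 0.11.

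Nqo1, a quinone reductase and a classical NRF2 target, spans chr8:107388225-107403205. Its locus stood at 20.5, 20.8 and 19.6 CPM in MDM, at 23.0, 22.8 and 22.5 in LL-MDM, at 13.3, 16.6 and 13.5 in MG and at 14.9, 13.3 and 14.5 in LL-MG. Both MDM groups lay above both microglia groups in every library, and MG and LL-MG overlapped. MG was below MDM (-0.47 ± 0.14, edgeR adjusted p = 0.0104), which was lost without MG 3 (0.0584). Without both MG 2 and MG 3 the log2 fold change was -0.62. LL-MG was below LL-MDM (-0.67 ± 0.17, edgeR adjusted p = 0.00752). Thinning all libraries to the smallest total ended both calls (0.258 and 0.0638). LL-MDM exceeded MDM by 0.15 (95% interval -0.14 to 0.45), which was not called. At the start of Nqo1, where the promoter shown above lies, the region chr8:107403045-107403719 averaged 17.6 CPM in MDM, 20.8 in LL-MDM, 14.1 in MG and 12.4 in LL-MG. This region, the only one of Nqo1 that was tested, was not called between MG and MDM, which overlapped (-0.27 ± 0.18, edgeR adjusted p = 0.2). It was lower in LL-MG than in LL-MDM (-0.75 ± 0.21, edgeR adjusted p = 0.0104; 0.0695 without LL-MG 2 and 0.0516 without LL-MG 3). The other 2 Nqo1 regions, named as peaks in MDM only, did not pass the count filter.

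Txnrd1, the cytosolic thioredoxin reductase, spans chr10:82833951-82897724. Its locus stood at 231, 218 and 239 CPM in MDM, at 200.2, 195 and 191 in LL-MDM, at 177, 159.7 and 158.9 in MG and at 188, 177 and 175 in LL-MG. MDM lay above LL-MDM and LL-MDM above both microglia groups in every library, while MG and LL-MG overlapped. MG was below MDM (-0.47 ± 0.07, edgeR adjusted p = 2.4e-05), a call kept in all 23 alternatives, and LL-MDM was below MDM (-0.23 ± 0.08, 0.0292). The second call was lost without MDM 1 (0.0876), MDM 3 (0.064), LL-MDM 2 (0.0958) or LL-MDM 3 (0.114). The lipid-load difference was higher in microglia than in MDM by 0.36 ± 0.11 (edgeR adjusted p = 0.0437), and 17 of 23 alternatives did not call it, among them those leaving out any library but MDM 2 and MG 1 (0.0634 to 0.125).
The regions of Txnrd1 did not move together. The most accessible one, chr10:82858540-82859534, which holds the promoter shown above, averaged 91.1 CPM in MDM, 80.4 in LL-MDM, 79.3 in MG and 76.3 in LL-MG and was not called between MG and MDM (-0.20 ± 0.11, edgeR adjusted p = 0.13). The region at the next start, chr10:82860208-82861015, was 73.1 CPM in MDM and 47.9 in MG (-0.61 ± 0.12, edgeR adjusted p = 4.61e-05). Beyond the far end of the gene, chr10:82899781-82900557 stood at 52.2, 50.2 and 54.0 CPM in MDM, at 41.6, 32.5 and 34.9 in LL-MDM, at 21.9, 26.1 and 24.9 in MG and at 24.9, 23.0 and 25.0 in LL-MG. MDM, LL-MDM and the microglia groups again formed 3 levels. MG was below MDM (-1.08 ± 0.13, edgeR adjusted p = 1.84e-08) and LL-MDM below MDM (-0.57 ± 0.13, 0.00116; of 20 alternatives only thinning to the smallest total lost it). LL-MG was below LL-MDM (-0.53 ± 0.16, edgeR adjusted p = 0.013; lost without LL-MDM 1 or any LL-MG library, 0.0531 to 0.0744).
Among the regions of Txnrd1, 2 were higher in MG than in MDM, against the direction of the locus. Beyond the far end of the gene, chr10:82901556-82901735 averaged 6.13 CPM in MDM and 9.42 in MG (0.65 ± 0.22, edgeR adjusted p = 0.0153). At chr10:82866054-82866320, inside Txnrd1, within 5 kb of Eid3 and named as a peak in MG only, values were 4.75, 3.91 and 4.44 CPM in MDM, 7.09, 4.45 and 4.79 in LL-MDM, 7.78, 21.1 and 14.4 in MG and 6.79, 6.58 and 4.35 in LL-MG. MG 2 and MG 3 were the highest and MG 1 lay near LL-MDM 1. A peak named in MG only favours a higher value in MG. MG exceeded MDM by 1.79 ± 0.25 (edgeR adjusted p = 3.44e-07) and LL-MG was below MG (-1.37 ± 0.31, 0.00489). Without MG 2 and MG 3 these were 0.84 (0.0785) and -0.43 (0.853), and without MG 2 or LL-MG 3 the second had an adjusted p of 0.056 or 0.0602. The lipid-load interaction was -1.56 ± 0.44 (edgeR adjusted p = 0.0206), lost without MDM 2, MG 2, LL-MG 3 or any LL-MDM library (0.0578 to 0.11).

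Over all 58 regions, 48 passed the count filter. Of these, 30 differed between MG and MDM, 14 higher and 16 lower, against 51.7% of all regions (26.8% higher and 24.9% lower), and 11 of the 16 belonged to Slc7a11. Between LL-MG and LL-MDM 6 differed (21.5% of all regions, 10.3% higher and 11.2% lower), 3 in each direction. Between LL-MDM and MDM 9 differed (29.5% of all regions, 15.4% higher and 14.1% lower), and the 7 that were higher lay at Slc40a1, Keap1, Nfe2l2, Hmox1 and Gclc. Between LL-MG and MG 4 differed (12.2% of all regions, 4.21% higher and 8.01% lower). The lipid-load interaction was called in 5 regions (10.9% of all regions, 4.56% above 0 and 6.33% below). At locus level it was called in 3 of the 10 members, against 8.72% of all loci (5.94% above 0 and 2.78% below). With libraries thinned to the smallest total the 5 region counts were 12, 3, 1, 2 and 2. Over all 36149 regions that passed the filter in that fit they were 11323, 5785, 5206, 2506 and 1338.

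**Figure D4:**
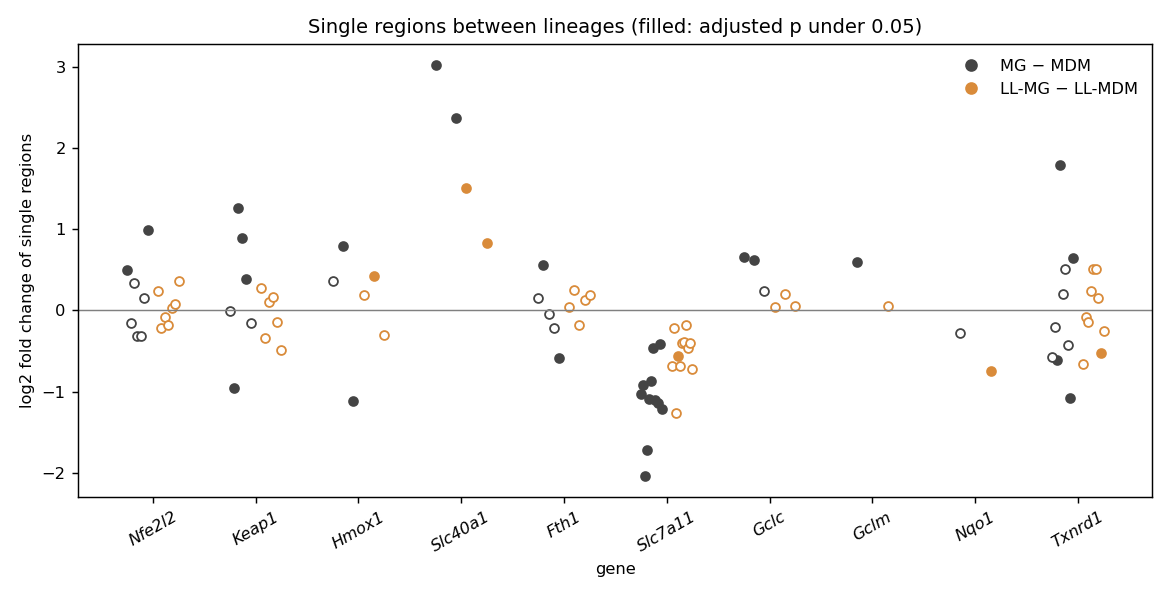
Log2 fold changes of the single tested regions of each gene between MG and MDM and between LL-MG and LL-MDM; each point is a region and filled points passed an adjusted p of 0.05. All 11 Slc7a11 regions lie below 0 for MG against MDM, both Slc40a1 regions lie above 2, and Txnrd1, Keap1, Hmox1 and Fth1 have called regions on both sides.

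Other genes of these pathways were read from 4 lists without the members (83 genes). Of 19 tested iron genes, 6 were higher and 1 lower in MG than in MDM (41% of all loci called), with a median log2 difference of 0.18 against -0.0040 for all loci. The zinc and iron importer gene Slc39a8 averaged 26.7 CPM in MDM and 41.8 in MG (0.60 ± 0.13, edgeR adjusted p = 0.000794), the ferrireductase gene Steap3 22.8 and 32.9 (0.50 ± 0.13, 0.0034), and Hamp, the gene of the iron hormone hepcidin that removes ferroportin from the cell surface, 8.23 and 2.67 (-1.66 ± 0.26, 2.1e-05).
Of 17 heme genes, 4 were higher and 3 lower in MG. Slc48a1, which moves heme out of the lysosome, averaged 40.1 CPM in MDM and 71.2 in MG (0.86 ± 0.12, edgeR adjusted p = 4.83e-06), and Spic, a transcription factor of macrophages that recycle red-cell iron, 2.94 and 0.684 (-2.44 ± 0.45, 0.000156). Of 11 NRF2 partners and regulators, 3 were higher and 2 lower. The small MAF genes went both ways, with Mafk higher in MG (132 and 189 CPM, 0.54 ± 0.13, edgeR adjusted p = 0.0029) and Maff lower (358 and 238 CPM, -0.60 ± 0.09, 2.06e-05).
Of 31 glutathione, thioredoxin and antioxidant genes, 8 were higher and 7 lower in MG. The lipid peroxide reductase gene Gpx4 averaged 87.0 CPM in MDM and 118.6 in MG (0.46 ± 0.08, edgeR adjusted p = 7.05e-05) and the mitochondrial thioredoxin reductase gene Txnrd2 14.2 and 29.3 (1.03 ± 0.14, 6.47e-06). The cytosolic peroxidase gene Gpx1 went from 111 to 67.3 CPM (-0.72 ± 0.08, edgeR adjusted p = 6.06e-07). Txnrd1 and Txnrd2 therefore differed in opposite directions between MG and MDM. Without MG 2 and MG 3, which leaves 1 MG library, the log2 fold change between MG and MDM was 0.14 for Mafk and -1.15 for Spic. With all libraries these were 0.54 and -2.44.

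With lipid load in MDM, 4 iron genes were higher and 1 lower (23.8% of all loci called), 4 heme genes were higher and 1 lower, 0 NRF2 partners were higher and 1 lower, and 7 antioxidant genes were higher and 2 lower. Steap3 averaged 22.8 CPM in MDM and 41.7 in LL-MDM (0.83 ± 0.13, edgeR adjusted p = 0.000132) and the endosomal iron transporter gene Slc11a2 119.7 and 169.7 (0.51 ± 0.10, 0.00144). Lrp1, whose product takes up heme bound to hemopexin, averaged 341 and 471 CPM (0.47 ± 0.10, edgeR adjusted p = 0.00265). Both biliverdin reductase genes were higher, Blvrb by 0.35 ± 0.09 (edgeR adjusted p = 0.00711) and Blvra by 0.34 ± 0.10 (0.0126). The glutathione transferase gene Gstm1 averaged 41.5 and 72.6 CPM (0.85 ± 0.10, edgeR adjusted p = 3.67e-06), Gpx3 6.61 and 17.2 (1.29 ± 0.23, 0.000386) and Gpx4 87.0 and 112 (0.38 ± 0.08, 0.00178). Because the model is shared by all groups, leaving out MG 2 and MG 3 changed the calls of this comparison too.
With lipid load in microglia, 3 iron genes were higher and 3 lower (18.3% of all loci called), 2 heme genes were higher and 1 lower, 2 NRF2 partners were higher and 3 lower, and 0 antioxidant genes were higher and 5 lower. Slc11a2 averaged 147 CPM in MG and 205 in LL-MG (0.50 ± 0.11, edgeR adjusted p = 0.00704) and Lrp1 334 and 469 (0.50 ± 0.11, 0.00664). Bach1, the heme-binding repressor, averaged 187 and 232 CPM (0.31 ± 0.08, edgeR adjusted p = 0.0167). The glutathione reductase gene Gsr was lower (66.5 and 48.3 CPM, -0.49 ± 0.13, edgeR adjusted p = 0.0156), as was Prdx6 (50.4 and 31.7 CPM, -0.71 ± 0.17, 0.0131). The size of the named differences rests on MG 2 and MG 3. Without them MG holds 1 library, so calls lost in that fit can reflect lost power. The log2 fold changes were then 0.19 for Slc11a2, 0.21 for Lrp1, 0.21 for Bach1, -0.095 for Gsr and -0.22 for Prdx6. Each was smaller in size than with all libraries. Between LL-MG and LL-MDM (20.3% of all loci called), 2 iron genes were higher and 1 lower, 1 heme gene was higher and 1 lower, 1 NRF2 partner was higher, and 1 antioxidant gene was higher and 7 lower. Leaving out MG 2 and MG 3 changed some of these counts through the shared model. Mgst1, a membrane-bound glutathione transferase, averaged 3.55 CPM in LL-MG and 13.7 in LL-MDM (-2.02 ± 0.31, edgeR adjusted p = 8.34e-05).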

How the data were processed

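Nuclei of macrophages sorted from mouse brain tumours were tagmented with Tn5 and sequenced (ATAC-seq), per the labels' protocols. The deposited table holds whole-number read counts for 117835 regions in 12 libraries. Each region identifier lists which of the 4 groups contributed a peak to it, per the file headers. A region named as a peak in some groups only was chosen through them, which favours higher values there. The submitters' processing notes name mm10, deepTools 3.5.1, Picard 2.12.0, SAMtools 1.10 and BWA 0.7.17-r1188; the sources used here do not say which read filters or Tn5 shift were applied. Totals of 1162969 to 18938222 counts per library set the precision, and intervals cover the spread between libraries.

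Counts were summed over each protein-coding gene's span (RefSeq) plus 5 kb on either side, so a region can count for several genes, and 9 of the 58 member regions did. Loci (15552 of 16304) and single regions (77737) that passed edgeR's filterByExpr were fitted with TMM scaling and robust quasi-likelihood in 1 model of 4 groups (edgeR 4.0.16, limma 3.58.1, R 4.3.3). P-values were adjusted by Benjamini-Hochberg over all features of a level, with a threshold of 0.05. Errors of log2 fold changes are standard errors. The interaction contrast is (LL-MG minus MG) minus (LL-MDM minus MDM). On simulated counts for MG against MDM, a log2 change of 1 was recovered in 83.8% of changed loci among 15552 and in 42.2% of changed regions among 77737, and a log2 change of 2 in 100% and 91.7%. The simulation gave every feature and group the same relative spread between libraries, so these shares need not hold for the real counts.

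The members and lists were chosen with earlier results of these data known. All members were named, with the region at the start, the region of highest CPM and up to 2 called regions per member and comparison by smallest p. Other pathway genes were named up to 3 per list and comparison. The result of 1 marker gene is not reported here. Alternatives were other scaling (RLE, total counts, loess offsets), no low-count filter, DESeq2 1.42.0, limma-voom, thinning to the smallest total, other locus windows, each library left out, MG 2 and MG 3 left out, and groups by title. The same settings for single regions, the list values without MG 2 and MG 3, the block of library sets and the amino acid element among the motifs were added after seeing the data. Within a group, 2 libraries differed by a chi-square per region of 1.64 to 1.92 in MDM and of 2.60 to 5.84 in MG. In LL-MDM and in LL-MG it was 1.12 to 1.17. Counting noise alone gives values near 1, so this measure cannot tell whether libraries of the lipid-laden groups are separate samples. All were counted as separate libraries.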

Additional observations from a re-analysis of the deposited data

Results flagged for a closer look

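Each value here is a lipid-load interaction (the log2 fold change of LL-MG over MG minus that of LL-MDM over MDM), listed because edgeR's quasi-likelihood test of that difference passed an adjusted p of 0.05. At locus level, Slc40a1 gave -1.36 (edgeR adjusted p = 0.0203): its mean rose from 3.01 to 9.82 CPM in MDM and stood at 16.7 and 20.7 in MG and LL-MG. Slc7a11 gave 0.68 (edgeR adjusted p = 0.0392), with LL-MG above MG and no call in MDM. Txnrd1 gave 0.36 (edgeR adjusted p = 0.0437), with LL-MDM below MDM and no call in microglia. Among single regions, Slc7a11 chr3:50402387-50403012 gave 1.15 (edgeR adjusted p = 0.00191) and Slc40a1 chr1:45925519-45925902 gave -1.54 (0.00346).

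Of the other regions, Txnrd1 chr10:82866054-82866320 gave -1.56 (edgeR adjusted p = 0.0206) and Gclc chr9:77750456-77751156 gave -0.62 (0.0255), where in both MG 2 and MG 3 were the highest libraries. Keap1 chr9:21237459-21237548 gave -1.15 (edgeR adjusted p = 0.0498), which 17 of 20 alternatives did not call (0.0519 to 0.674).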

How the results depend on the processing

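The library numbers in the column names form 3 sets of 4 that each hold every group once, but no label says that a set shares an animal or day. Deviations from the group means correlated by -0.14 to 0.11 within the 18 pairs of a set and by -0.16 to 0.14 in the 36 other pairs (loci), and not every library correlated best with its own set, so the sets were not taken as pairs. With the sets as a replicate block (added after seeing the data), the counts in the order below were 7, 3, 3, 1 and 2 loci and 29, 7, 8, 4 and 4 regions. Over all 15552 loci that fit called 6184, 3014, 3574, 2587 and 1185. Over all 77737 regions it called 39298, 15783, 22041, 8702 and 7595. Counts of called members are given in this order: the lineages without lipid load (MG against MDM), the lipid-laden lineages, lipid load in MDM, lipid load in microglia, and the interaction. They were 7, 4, 3, 1 and 3 of 10 loci and 30, 6, 9, 4 and 5 of 48 regions. With groups by title they were 0, 0, 6, 1 and 0 loci and 0, 0, 11, 2 and 0 regions. Over all 15552 loci that grouping called 0, 0, 2001, 1144 and 0, and over all 77737 regions 0, 0, 13770, 8252 and 0. In the first, the second and the last, 61, 106 and 43 loci had an unadjusted p under 0.05 by edgeR, the tool run on it. Thinned to the smallest total, 2 loci were called between LL-MG and LL-MDM and 0 for the interaction, and region counts were 12, 3, 1, 2 and 2. In that fit 14266 loci and 36149 regions passed the filter. Of all these loci 2172 and 497 were called in the same 2 comparisons. Of all these regions 11323, 5785, 5206, 2506 and 1338 were called. Without MG 2 and MG 3, loci were 6 for LL-MDM against MDM, 0 for LL-MG against MG and 1 for the interaction, and regions were 16, 10, 15, 0 and 2. Loess offsets gave 5 loci for LL-MDM against MDM, where 4029 of all 15552 loci were called. Leaving out shared regions gave 2 loci for LL-MG against MG, where 2202 of all 11657 were called. DESeq2 gave 2 regions each for LL-MG against MG and for the interaction, where 6295 and 5789 of all 77737 were called. Leaving out each library gave 6 to 7, 1 to 4, 2 to 5, 0 to 3 and 0 to 5 loci and 25 to 36, 1 to 8, 6 to 13, 1 to 9 and 2 to 12 regions.

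Of single values, 1779 kept direction and side of the threshold, 222 lost a call, 32 gained one and 22 changed sign, in results that had not been called. For MG against MDM, Nfe2l2 (0.014) was -0.017 over the span only and -0.011 to 0.042 with each library left out, and Fth1 was 0.31 without shared regions. For LL-MG against LL-MDM, Keap1 (0.015) was -0.0070 with total counts, -0.0016 with limma-voom, -0.032 over the span, -0.016 within 2 kb and -0.066 to 0.069 with each library left out; Fth1 was 0.0023 when thinned and 0.18 without shared regions. For LL-MG against MG, leaving out MG 2 and MG 3 gave -0.14 for Slc40a1, 0.14 for Gclm and 0.10 for Nqo1, thinning gave 0.065 for Gclc and 0.073 for Nqo1, Gclc was 0.013 within 2 kb, and Nqo1 (-0.046) was -0.11 to 0.091 with each library left out. For the interaction, Nfe2l2 was -0.00080 and Fth1 -0.13 without shared regions, and Hmox1 (-0.083) was -0.22 to 0.011 with each library left out. The cause was not tested. With total counts in place of TMM the median of all regions moved from 0.0046 to 0.11 between LL-MG and MG and from -0.13 to -0.024 for the interaction, and over all loci the calls for LL-MG against MG went from 1606 higher and 1241 lower to 1299 and 1620, and those of the interaction from 924 and 432 to 775 and 588. LL-MDM 1 has the lowest total, with 9 counts at the Slc40a1 locus.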

Other observations

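Some genes on the pathway lists also had a lipid-load difference that was unequal between the lineages. They were 2 of 19 iron genes, 1 of 17 heme genes, 2 of 11 NRF2 partners and 3 of 31 antioxidant genes, against 8.72% of all loci. Hamp, the hepcidin gene, averaged 8.23 CPM in MDM, 5.33 in LL-MDM, 2.67 in MG and 6.09 in LL-MG, and its difference was 1.84 ± 0.40 (edgeR adjusted p = 0.00685). Hepcidin acts on the ferroportin protein at the cell surface, and a link to the accessibility of Slc40a1 (-1.36) was not tested. The ferrireductase gene Steap4 averaged 4.47, 7.59, 5.29 and 1.62 CPM in the same order of groups (-2.37 ± 0.58, edgeR adjusted p = 0.0143). Hp, the gene of the haemoglobin-binding protein haptoglobin, averaged 5.47, 8.64, 12.1 and 1.69 CPM (-3.27 ± 0.86, edgeR adjusted p = 0.0351), with an SD of 8.12 over the 3 MG libraries.

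Among NRF2 partners, the small MAF genes went opposite ways again: Maff gave 0.55 ± 0.13 (edgeR adjusted p = 0.0127) and Mafk -0.64 ± 0.19 (0.0482). Of the antioxidant genes, Gstm1 averaged 41.5 CPM in MDM, 72.6 in LL-MDM, 54.4 in MG and 55.3 in LL-MG (-0.83 ± 0.15, edgeR adjusted p = 0.00155). Gsr gave -0.64 ± 0.17 (edgeR adjusted p = 0.0226) and the mitochondrial reductase gene Txnrd2 -0.74 ± 0.23 (0.0487). Without MG 2 and MG 3, which leaves 1 MG library, Gstm1 gave -0.91, Hamp 1.60, Steap4 -1.08 and Hp -1.29. Maff then gave 0.32, Mafk -0.25, Gsr -0.25 and Txnrd2 -0.67. All of these but Gstm1 were smaller in size than with all libraries.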
